A study of Mus musculus with 9 samples.

Results

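The genes of the TNF pathway and of NF-κB feedback were followed in blood RNA, as the 10 rows of the deposited expression table with the symbols Tnf, Tnfrsf1a, Tnfrsf1b, Nfkb1, Nfkb2, Relb, Nfkbia, Tnfaip3, Tifa and Tifab, of 20926 genes in all. They were chosen by their place in the pathway, with earlier results of the same libraries known, so their own levels are described here and were not tested. The libraries came from male DBA/1 mice, 7 weeks old when the study began, in 3 groups of 3. Ctrl mice were not irradiated, and whether they received adjuvant or a sham injection is not stated. CIA mice had collagen-induced arthritis, a model of rheumatoid arthritis that is raised by injecting chick type II collagen in complete Freund's adjuvant and then a booster in incomplete adjuvant. CIA+THz mice were made arthritic in the same way and received radiation of 0.1 THz on the swollen ankle for 30 min per day over 14 days, under isoflurane anaesthesia, and whether the other groups were anaesthetized is not stated. The comparisons ask what arthritis and what irradiation changed in the blood, which is not the irradiated tissue.

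TNF is a cytokine made as a membrane protein by activated leukocytes, and it signals through the receptors TNFR1 and TNFR2. Receptor signals, like those of TIFA, reach the IKK kinases, which mark the inhibitor IκBα for destruction and so release NF-κB, a dimer of Rel proteins that enters the nucleus. Among the genes that NF-κB switches on are its own inhibitors, IκBα and A20, and some of its own subunits, which is the feedback that these genes are known for. TNF is a drug target in rheumatoid arthritis.

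The unit is FPKM, fragments mapped to a gene, corrected for the length of its transcript and for the size of the library, so that levels can be compared between genes. Each library was rescaled with 1 factor, the median ratio to a reference over the 10312 genes above 0 in all 9 libraries, and all levels below are rescaled FPKM unless they are called deposited. FPKM holds no counts, so the depth behind a value is unknown. The number of genes above 0 was 11816 to 12264 in the Ctrl libraries, 11801 to 12066 in CIA and 12449 to 12807 in CIA+THz. The label says blood leukocyte, and the pan-leukocyte gene Ptprc was at 66.8 to 150 over the 9 libraries. RNA of maturing red cells was also present. Their gene Alas2 held 14.4% to 16.6% of the summed deposited FPKM of a Ctrl library and 16.3% to 16.7% in CIA. It held 11.4% to 14.0% in CIA+THz, below every Ctrl and CIA library, and the part of this in the scaling was not tested. The rescaling factors were 0.847 to 1.06 in Ctrl and CIA and 1.10 to 1.24 in CIA+THz. They shifted the median log2 fold change of CIA+THz against CIA by 0.28 relative to the deposited values, and that of CIA+THz against Ctrl by 0.31, so values with deposited FPKM are given beside those of the members in these comparisons.

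Fold changes are differences of the mean log2(rescaled FPKM + 0.1). On this scale the change of a low gene comes out too small. Each is given with its standard error (SE) from limma fitted on the 6 libraries of the pair, other than the deposited values of pathway genes, which are given alone. A gene is called here when its log2 fold change exceeds 0.67 in size and its unadjusted p is under 0.05. All 10 members passed the minimum mean of 0.1 rescaled FPKM, at which 12366 genes were tested. Of these, 9.04% were called between CIA and Ctrl, 4.54% between CIA+THz and CIA, and 7.88% between CIA+THz and Ctrl. Where the libraries of a group are said not to overlap those of another, the background is 11.8% of genes higher and 11.8% lower in CIA against Ctrl, 9.38% and 10.2% in CIA+THz against CIA, and 11.9% and 12% in CIA+THz against Ctrl.

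Tifab was the member that differed most in CIA, at 3.45 times its Ctrl mean, and Tnf was the only member whose CIA libraries were all below the Ctrl libraries. Both TNF receptors, Nfkb2, Relb, Nfkbia and Tifa were also higher in every CIA library than in every Ctrl library. Nfkb1 and Tnfaip3 overlapped between Ctrl and CIA. In CIA+THz, Tnf, Tnfrsf1a and Tifab were lower than in every CIA library, and no member was higher than in every CIA library. With deposited FPKM these 3 genes overlapped between CIA+THz and CIA, while Tnfaip3 and Nfkb1 were higher in every CIA+THz library. Against Ctrl, 4 members were higher in every CIA+THz library and 2 lower, or 7 and 1 with deposited FPKM.

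**Figure D1:**
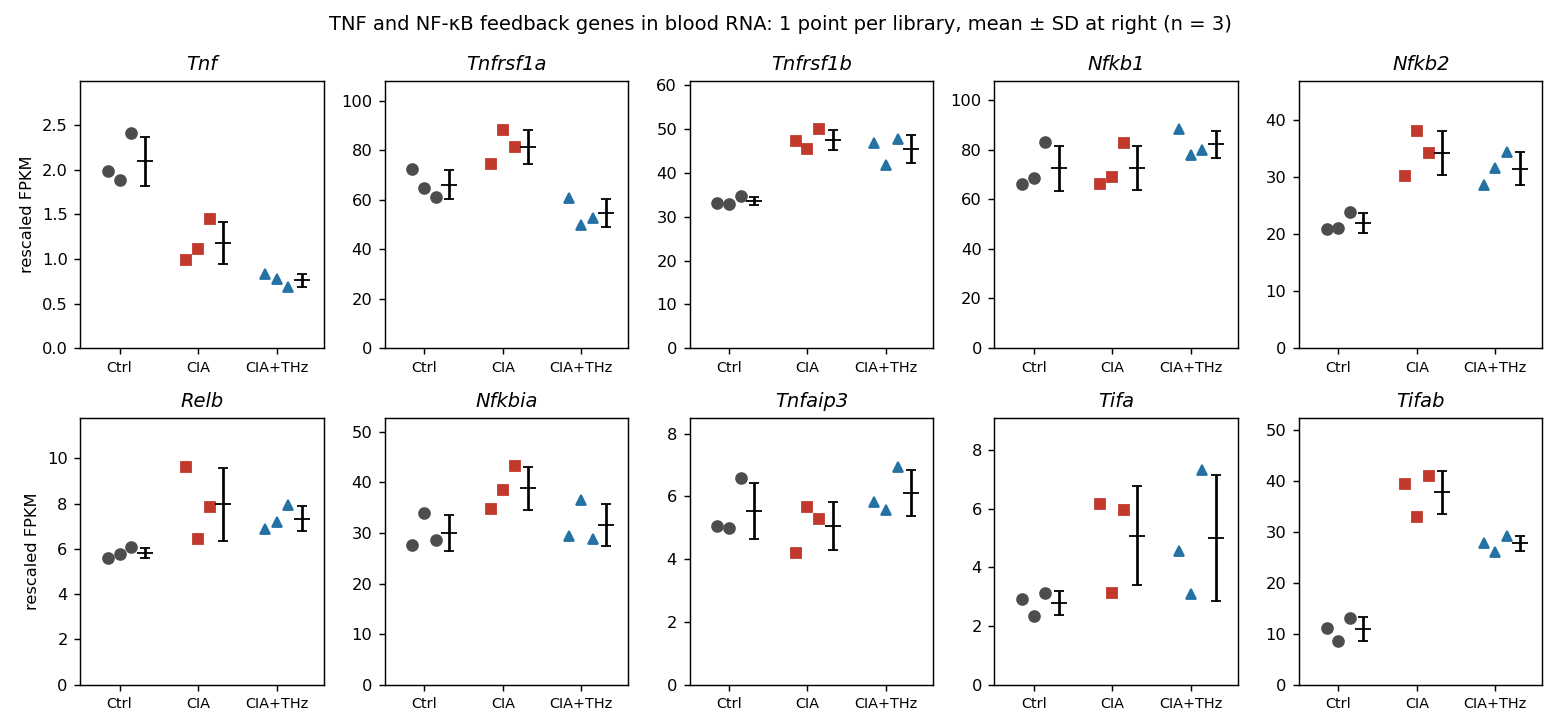
Rescaled FPKM (vertical axes, each from 0) of the 10 members in each Ctrl, CIA and CIA+THz library, with 1 point per library and the mean ± SD of the 3 libraries at the right of each group. Tifab lies between 8.51 and 13.1 in Ctrl and between 33.0 and 40.9 in CIA, while Tnf lies below 2.5 in every library and is lowest in CIA+THz.

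Tnf, the gene of the ligand (chromosome 17 of GRCm38, 35199381 to 35202007, minus strand), was at 1.98, 1.89 and 2.41 in the Ctrl libraries, at 0.988, 1.11 and 1.45 in CIA, and at 0.830, 0.771 and 0.681 in CIA+THz. The groups did not overlap, with Ctrl highest and CIA+THz lowest. The Ctrl mean was 2.09 ± 0.278 (SD, n = 3), the CIA mean 1.18 ± 0.237 and the CIA+THz mean 0.760 ± 0.0750. On the log2 scale the change was -0.78 (SE 0.32) in CIA against Ctrl, -0.56 (SE 0.30) in CIA+THz against CIA and -1.35 (SE 0.29) in CIA+THz against Ctrl. Deposited FPKM gave -0.31 (SE 0.32) and -1.07 (SE 0.34) for the last 2. With deposited FPKM the CIA+THz libraries, at 1.03, 0.881 and 0.748, overlapped the CIA libraries, at 0.898, 1.079 and 1.43, and both groups stayed below the lowest Ctrl library, at 1.60. At these low levels Tnf was the least abundant member in every library.

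Tnf is made by several leukocytes, among them T cells, monocytes and NK cells. The summed level of 13 T cell markers was 480 to 548 in Ctrl, 387 to 441 in CIA and 495 to 660 in the CIA+THz libraries. All 13 had a fold change below 0 in CIA against Ctrl, with 0 called, and above 0 in CIA+THz against CIA, with 1 called, and none was at 0 in any library. Signs were the same with deposited FPKM for all 13 in both comparisons. The summed level of 7 NK cell markers was 144 to 187, 53.6 to 120 and 96.7 to 153 in the same order. Of these, 6 had a fold change below 0 in CIA against Ctrl, with 4 called, and all 7 one above 0 in CIA+THz against CIA, with 2 called, and these sign counts were equal with deposited FPKM. Relative to Cd3e, a subunit of the T cell receptor complex, Tnf was at 0.0618 to 0.0715 in Ctrl, 0.0366 to 0.0572 in CIA and 0.0213 to 0.0252 in CIA+THz, without overlap, and a ratio within a library does not depend on the scaling. Relative to Prf1, the gene of perforin in NK cells and cytotoxic T cells, it was at 0.0352 to 0.0474 in Ctrl and 0.0264 to 0.0775 in CIA, which overlapped, and at 0.0130 to 0.0201 in CIA+THz, below both. Both ratios were chosen after the values were seen, and among T cell and NK cell markers the result in CIA depends on the marker. In CIA against Ctrl the ratio of Tnf was lower in every library for 6 of the 13 T cell markers and overlapped for 7, and of the 7 NK cell markers it was lower for 1, higher for 1 and overlapped for 5. For all 13 monocyte markers it was lower in CIA than in Ctrl. In CIA+THz against Ctrl it was lower for all 13 T cell and all 13 monocyte markers. Of the 7 NK cell markers it was lower there for 6 and overlapped for 1. In CIA+THz against CIA it was lower for all 13 T cell markers and for 3 of the 7 NK cell markers, and for 4 of the 13 monocyte markers, the others overlapping. In bulk RNA, fewer cells of a type and less RNA per cell cannot be told apart, and the part of cell numbers in these levels was not tested.

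Tnfrsf1a encodes TNFR1, the widely expressed receptor with a death domain (chromosome 6, 125349362 to 125362484, plus strand). It was at 72.3, 64.8 and 61.1 in Ctrl, at 74.4, 88.0 and 81.2 in CIA, and at 60.8, 49.9 and 52.6 in CIA+THz. Every CIA library was above, and every CIA+THz library below, the range of Ctrl, in both cases by a narrow margin. The fold change on the log2 scale was 0.30 (SE 0.12) in CIA against Ctrl, -0.58 (SE 0.11) in CIA+THz against CIA and -0.28 (SE 0.12) in CIA+THz against Ctrl. The last of these turned to 0.03 (SE 0.15) with deposited FPKM, and that of CIA+THz against CIA was -0.30 (SE 0.15).

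Tnfrsf1b encodes TNFR2, a receptor without a death domain that is largely restricted to leukocytes and endothelium (chromosome 4, 145213463 to 145246870, minus strand). It was at 33.2, 32.8 and 34.6 in Ctrl, at 47.4, 45.5 and 49.97 in CIA, and at 46.9, 41.9 and 47.7 in CIA+THz. Both arthritic groups were above Ctrl in every library and overlapped with each other. Its spread was the smallest of all members in Ctrl, with an SD of 2.84% of the mean. Its log2 fold change was 0.50 (SE 0.10) in CIA against Ctrl and 0.44 (SE 0.10) in CIA+THz against Ctrl, or 0.74 (SE 0.14) in the latter with deposited FPKM, which is past 0.67. In CIA+THz against CIA it was -0.07 (SE 0.09), or 0.21 (SE 0.11) with deposited FPKM.

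The 2 receptors can be compared within each library, free of any scaling. The ratio of Tnfrsf1b to Tnfrsf1a was 0.459, 0.507 and 0.567 in Ctrl, 0.637, 0.517 and 0.615 in CIA, and 0.771, 0.840 and 0.906 in the CIA+THz libraries. Ctrl and CIA overlapped, and every CIA+THz library was above all 6 others. The Ctrl mean was 0.511 ± 0.0544 (SD, n = 3), the CIA mean 0.590 ± 0.0641 and the CIA+THz mean 0.839 ± 0.0673. The ratio was chosen with these values known, as were the other ratios below, and it is a description without a test. Neutrophils and monocytes carry both receptors, and the summed level of 13 neutrophil markers was 12670 to 21398 in Ctrl, 14757 to 19436 in CIA and 10844 to 12321 in the CIA+THz libraries. Most of this sum is S100a9, and its parts moved apart. In CIA against Ctrl 7 of the 13 had a fold change above 0 and 6 below, with 3 called higher and 1 lower. The secondary granule gene Camp was at 1.64 to 7.61 in Ctrl, 68.6 to 155 in CIA and 18.5 to 37.3 in the CIA+THz libraries. Ltf and Ngp, of the same granules, were also higher in every CIA library than in every Ctrl library. Mmp8 and Lcn2, of the same list, did not rise with them. Mmp8 was at 135 to 275 in Ctrl and 58.7 to 98.6 in CIA, lower in every library. Lcn2, with means of 330 and 253, overlapped between these groups. In CIA+THz against CIA 12 of the 13 had a fold change below 0, of which 4 were called, or 11 of 13 below 0 with deposited FPKM. All but Elane and Mpo were above 0 in every library. The part of neutrophils in the ratio was not tested.

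**Figure D2:**
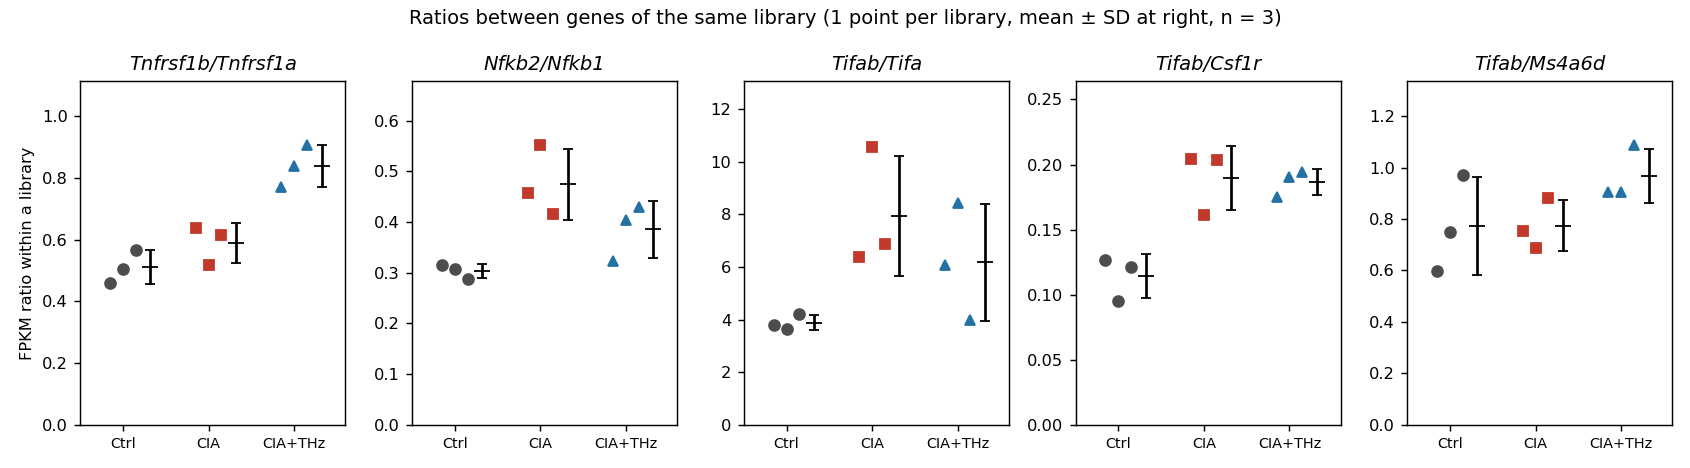
Ratios of FPKM between genes of the same library (vertical axes, each from 0), with 1 point per Ctrl, CIA or CIA+THz library and the mean ± SD at the right of each group. The ratio Tnfrsf1b/Tnfrsf1a is 0.771 to 0.906 in CIA+THz and at most 0.637 elsewhere, while Tifab/Csf1r is at most 0.127 in Ctrl and at least 0.161 in the arthritic groups and Tifab/Ms4a6d overlaps between Ctrl and CIA.

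Nfkb1 encodes p105, the precursor of the p50 subunit of canonical NF-κB (chromosome 3, 135584655 to 135691547, minus strand). It was the most abundant of the 3 subunit genes, at 66.0, 68.3 and 82.9 in Ctrl, 66.0, 68.9 and 82.5 in CIA, and 88.4, 78.0 and 80.0 in the CIA+THz libraries. The 3 groups overlapped. On the log2 scale the change was 0.00 (SE 0.14) in CIA against Ctrl and 0.18 (SE 0.11) in CIA+THz against CIA, or 0.46 (SE 0.15) in the latter with deposited FPKM. Against Ctrl the CIA+THz value was 0.19 (SE 0.12), or 0.49 (SE 0.18) with deposited FPKM, where the groups did not overlap.

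Nfkb2 encodes p100, which holds RelB in the cytoplasm until the non-canonical pathway cuts it to p52 (chromosome 19, 46304320 to 46312385, plus strand). It was at 20.8, 21.0 and 23.9 in Ctrl, at 30.2, 38.0 and 34.2 in CIA, and at 28.5, 31.5 and 34.3 in CIA+THz. Both arthritic groups were above Ctrl in every library and overlapped with each other. The fold change on the log2 scale was 0.64 (SE 0.13) in CIA against Ctrl, just below the threshold of 0.67, and 0.52 (SE 0.12) in CIA+THz against Ctrl, or 0.82 (SE 0.16) in the latter with deposited FPKM, past the threshold. In CIA+THz against CIA it was -0.12 (SE 0.12), or 0.16 (SE 0.13) with deposited FPKM. Exons of Nfkb2 overlap those of Psd by 299 bases and of the noncoding gene AC114539.1 by 531 bases, both on the other strand, and whether strand was used in the counting is not given in the sources used here.

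Relb, the gene of the partner of p52 (chromosome 7, 19606217 to 19629438, minus strand), was at 5.61, 5.77 and 6.06 in Ctrl, at 9.62, 6.42 and 7.83 in CIA, and at 6.87, 7.18 and 7.94 in CIA+THz. Its lowest CIA library was only slightly above its highest Ctrl library, and with deposited FPKM the 2 groups overlapped. Its log2 fold change was 0.43 (SE 0.20) in CIA against Ctrl, -0.10 (SE 0.18) in CIA+THz against CIA, or 0.17 (SE 0.17) with deposited FPKM, and 0.33 (SE 0.15) in CIA+THz against Ctrl, or 0.63 (SE 0.19) with deposited FPKM. Within a library, the ratio of Nfkb2 to Nfkb1 was 0.288 to 0.315 in Ctrl, 0.415 to 0.552 in CIA and 0.322 to 0.430 in CIA+THz. Both arthritic groups lay above the range of Ctrl and overlapped with each other.

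Nfkbia encodes IκBα, the inhibitor that NF-κB itself restores after a signal (chromosome 12, 55489410 to 55492647, minus strand). It was at 27.5, 34.0 and 28.5 in Ctrl, at 34.7, 38.6 and 43.1 in CIA, and at 29.4, 36.4 and 28.9 in CIA+THz. CIA was above Ctrl in every library by a narrow margin, and CIA+THz overlapped both. On the log2 scale the change was 0.37 (SE 0.14) in CIA against Ctrl, -0.30 (SE 0.13) in CIA+THz against CIA, or -0.02 (SE 0.15) with deposited FPKM, and 0.07 (SE 0.14) in CIA+THz against Ctrl. The last was 0.38 (SE 0.14) with deposited FPKM, where the CIA+THz libraries, at 36.5, 41.6 and 31.7, were all above the highest Ctrl library, at 30.1. The ratio of Nfkbia to Nfkb1 within a library was 0.523 to 0.559 in CIA, above 0.344 to 0.498 in Ctrl and above 0.333 to 0.467 in CIA+THz.

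Tnfaip3 encodes A20, an enzyme that edits ubiquitin chains and ends signalling from TNFR1 to IKK (chromosome 10, 19000910 to 19015657, minus strand). It was at 5.06, 4.98 and 6.57 in Ctrl, at 4.20, 5.67 and 5.28 in CIA, and at 5.81, 5.57 and 6.95 in CIA+THz. All 3 groups overlapped. The fold change on the log2 scale was -0.13 (SE 0.22) in CIA against Ctrl and 0.27 (SE 0.18) in CIA+THz against CIA, or 0.55 (SE 0.20) in the latter with deposited FPKM, where the groups did not overlap. The CIA+THz value against Ctrl was 0.14 (SE 0.19), or 0.45 (SE 0.24) with deposited FPKM. The ratio of Tnfaip3 to Nfkbia was 0.121 to 0.147 in CIA, 0.146 to 0.230 in Ctrl and 0.153 to 0.241 in CIA+THz, so that CIA overlapped Ctrl by a narrow margin and lay below CIA+THz.

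Tifa encodes an adaptor that assembles TRAF6 when the kinase ALPK1 senses bacterial ADP-heptose (chromosome 3, 127789805 to 127832164, plus strand). It was at 2.94, 2.34 and 3.11 in Ctrl, at 6.15, 3.13 and 5.96 in CIA, and at 4.57, 3.09 and 7.34 in CIA+THz. It had the widest relative spread of the members, with an SD of 33.3% of the mean in CIA and 43.1% in CIA+THz. In each arthritic group the lowest library was close to the highest Ctrl library, and CIA replicate 2 exceeded it by less than the SD of Ctrl. With deposited FPKM the CIA and Ctrl libraries overlapped. Its log2 fold change was 0.79 (SE 0.32) in CIA against Ctrl, -0.05 (SE 0.39) in CIA+THz against CIA, or 0.23 (SE 0.38) with deposited FPKM, and 0.74 (SE 0.33) in CIA+THz against Ctrl, or 1.04 (SE 0.35) with deposited FPKM. Leaving out 1 library gave 0.62 (without CIA replicate 1) to 1.10 (without CIA replicate 2) in CIA against Ctrl, and the value was under 0.67 also without CIA replicate 3 or Ctrl replicate 2. Exons of Tifa overlap those of Gm43654 on the other strand by 105 bases.

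Tifab encodes a relative of TIFA that inhibits TIFA and TRAF6 signalling (chromosome 13, 56173704 to 56178885, minus strand). It was at 11.2, 8.51 and 13.1 in Ctrl, at 39.3, 33.0 and 40.9 in CIA, and at 27.8, 26.1 and 29.2 in CIA+THz. The groups did not overlap, and CIA+THz lay between the others. On the log2 scale the change was 1.79 (SE 0.19) in CIA against Ctrl, -0.44 (SE 0.11) in CIA+THz against CIA and 1.35 (SE 0.17) in CIA+THz against Ctrl. With deposited FPKM the CIA+THz libraries, at 34.5, 29.9 and 32.1, overlapped the CIA libraries, at 35.7, 31.96 and 40.6, and the log2 fold change between them was -0.16 (SE 0.12), and 1.66 (SE 0.23) against Ctrl. The ratio of Tifab to Tifa was 3.64 to 4.21 in Ctrl, 6.39 to 10.5 in CIA and 3.98 to 8.44 in CIA+THz.

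Monocyte markers were higher in CIA than in Ctrl, as Tifab was. The summed level of 13 monocyte markers was 721 to 788 in Ctrl, 1204 to 1361 in CIA and 948 to 1009 in the CIA+THz libraries. All 13 had a fold change above 0 in CIA against Ctrl, of which 9 were called, and 12 of 13 had one below 0 in CIA+THz against CIA, of which 3 were called. With deposited FPKM 8 of 13 were below 0 in the latter, and the sums, at 1167 to 1326 in CIA and 1083 to 1249 in CIA+THz, overlapped. None of the 13 was at 0 in any library. Relative to Csf1r, the receptor that defines monocytes and macrophages, Tifab was at 0.127, 0.0953 and 0.121 in Ctrl, 0.204, 0.161 and 0.203 in CIA, and 0.175, 0.190 and 0.194 in the CIA+THz libraries. On this ratio, also chosen after the values were seen, the arthritic libraries were all above the Ctrl libraries. Relative to Ms4a6d, another gene of the list, Tifab was at 0.597 to 0.973 in Ctrl and 0.689 to 0.883 in CIA, which overlapped, and at 0.907 to 1.09 in CIA+THz. Over the 13 markers the ratio was higher in every CIA library than in every Ctrl library for 7 and overlapped for 6, Fn1 and Chil3 among the latter. Whether Tifab differed by more than the monocyte markers thus depends on the marker, and the part of monocyte numbers in the level of Tifab was not tested.

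**Figure D3:**
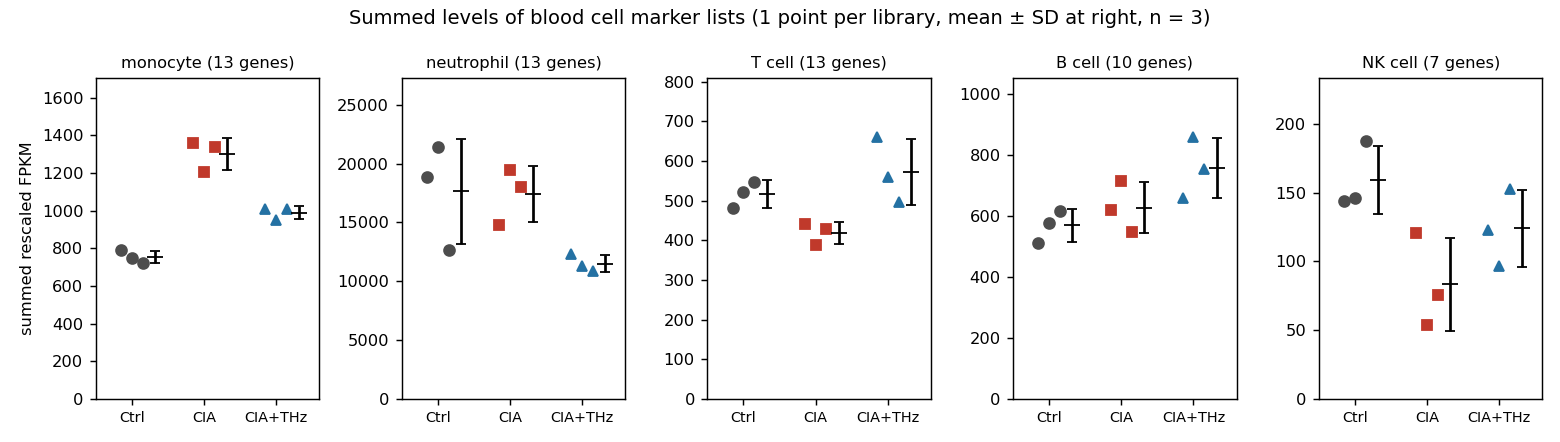
Summed rescaled FPKM (vertical axes, each from 0) of lists of marker genes for 5 blood cell types in each Ctrl, CIA and CIA+THz library, with the mean ± SD of the 3 libraries at the right of each group. The monocyte sum is 721 to 788 in Ctrl and 1204 to 1361 in CIA, and the T cell sum is lowest in CIA.

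By the criterion above, 3 of the 10 members were called between CIA and Ctrl, Tifa and Tifab higher and Tnf lower, beside 9.04% of all genes, 4.79% higher and 4.25% lower. None was called between CIA+THz and CIA, beside 4.54%, 2.94% higher and 1.6% lower. Between CIA+THz and Ctrl, 2 were called, Tifab higher and Tnf lower, beside 7.88%, 4.64% higher and 3.24% lower. The members were chosen with these comparisons known, so nothing is read from the counts. Leaving out 1 library left 2 calls in CIA against Ctrl, or 1 where Ctrl replicate 1 or 2 was left out, and with deposited FPKM there was 1. The call of Tnf, the only one lower, was lost in every fit without 1 library, other than that without CIA replicate 3. It was also lost with deposited FPKM, a pseudocount of 1, a minimum mean of 1 or none, a replicate block, and the adjusted p. Deposited FPKM gave 5 calls in CIA+THz against Ctrl, 4 higher and 1 lower. Just inside the threshold were Tnf at -0.78 and Tifa at 0.79, and just outside were Nfkb2 at 0.64 and Tnfrsf1b at 0.50, all in CIA against Ctrl. The comparisons of CIA with Ctrl and of CIA+THz with CIA share the CIA libraries with opposite sign, so opposite directions in these 2, of members, markers or pathway genes, can come from the CIA libraries alone. The other pairs of comparisons share the CIA+THz or the Ctrl libraries.

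**Figure D4:**
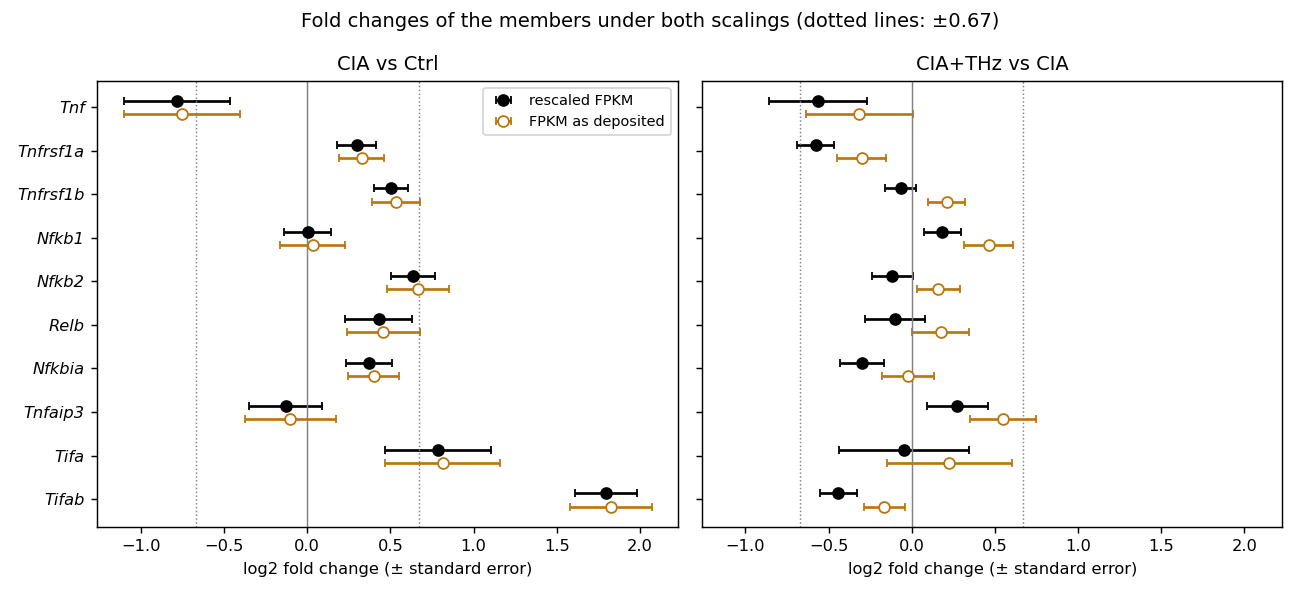
Log2 fold changes (horizontal axes, with standard errors) of the 10 members in CIA against Ctrl and in CIA+THz against CIA, from rescaled FPKM (filled) and from FPKM as deposited (open), with dotted lines at ±0.67. In CIA+THz against CIA, 8 of 10 members are below 0 with rescaled FPKM and 4 of 10 as deposited.

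Of the 8 members with a promoter window in RefSeq (GRCm38.p6), from 250 bases before to 50 after a start site, 4 held a common form of the NF-κB site, the letters GGG, 2 bases of any kind and then TTTCC, on either strand. These were Nfkb2, Nfkbia, Tnfaip3 and Tifa, in 6 of 12 windows, 2 of which hold the same site of Nfkb2. Of all 32851 windows, 1.63% held a match, and of the 82 windows of the other pathway genes below, 10 did (12.2%). The match began 11 bases before a start of Nfkb2, 29 before that of Nfkbia and 12 before that of Tnfaip3, and it lay 33 bases after a start of Tifa. A further site of Nfkb2, the one held by 2 windows, lay 10 bases after 1 start and 225 before another, and is not shown. Tnf, both receptors and Tifab held none. Only this 1 pattern was sought, and only in these windows, so other forms of the site and sites farther away would be missed. A match describes the letters and not binding. In CIA against Ctrl the 4 genes with one had log2 fold changes from -0.13 to 0.79. Tnf, both receptors and Tifab, without one, had -0.78 to 1.79, and a relation of the match to the changes was not tested. The sequences are shown because these genes carry the feedback and the largest differences, 5′ to 3′ on the strand of the gene, with the match in capitals. For Nfkbia and Tnfaip3 it lies on the other strand and so appears as its reverse complement. The stretch of Tifa is 30 bases around its match, and the others are the 250 bases before a start site.
Nfkb2 (chr19:46304487-46304736, plus strand): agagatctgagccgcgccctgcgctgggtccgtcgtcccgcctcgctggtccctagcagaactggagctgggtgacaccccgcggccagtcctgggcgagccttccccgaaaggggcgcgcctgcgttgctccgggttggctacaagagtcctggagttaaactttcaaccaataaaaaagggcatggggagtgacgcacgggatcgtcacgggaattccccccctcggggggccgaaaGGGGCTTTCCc
Nfkbia (chr12:55492648-55492897, minus strand): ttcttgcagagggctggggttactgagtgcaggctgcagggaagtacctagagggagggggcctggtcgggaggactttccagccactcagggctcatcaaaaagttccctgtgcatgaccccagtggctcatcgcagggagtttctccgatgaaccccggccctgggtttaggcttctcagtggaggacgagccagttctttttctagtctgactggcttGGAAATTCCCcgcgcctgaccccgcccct
Tnfaip3 (chr10:19015411-19015660, minus strand): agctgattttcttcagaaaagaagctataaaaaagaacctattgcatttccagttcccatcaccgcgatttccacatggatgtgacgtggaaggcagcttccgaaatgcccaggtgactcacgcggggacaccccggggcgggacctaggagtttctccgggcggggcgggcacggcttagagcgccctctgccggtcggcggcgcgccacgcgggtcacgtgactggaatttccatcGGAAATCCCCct
Tifa (chr3:127790677-127790706, plus strand): gtcgttgtgatccGGGATTTTCCaattttc
Tifab (chr13:56178886-56179135, minus strand): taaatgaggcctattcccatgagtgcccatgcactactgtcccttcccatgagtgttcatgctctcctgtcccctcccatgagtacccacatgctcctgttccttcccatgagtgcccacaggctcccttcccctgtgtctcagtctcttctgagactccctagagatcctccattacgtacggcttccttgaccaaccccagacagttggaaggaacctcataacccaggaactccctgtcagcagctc

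The rest of the pathway was followed with 7 lists of 82 other genes, of which 81 passed the minimum level. They hold no member, and the test below is the fit over all genes. Between CIA and Ctrl, 6 rose and 1 fell, or 8.64% of 81, beside 9.04% of all genes. Cd40, Lta, Ltbr, Nfkbib, Nfkbie and Tradd rose, and Tia1 fell. The count was 3 without Ctrl replicate 2 or CIA replicate 2 and 11 without Ctrl replicate 3. Of 15 alternatives, the call was lost under 9 for Lta, 8 for Tia1, 6 for Tradd, 4 for Cd40, 4 for Ltbr, 2 for Nfkbie and 1 for Nfkbib. None had a Benjamini-Hochberg adjusted p under 0.05 by limma (beside 0.154% of all genes), and 19 had an unadjusted p under 0.05, beside 17.3% of all genes. The median log2 fold change of the 81 genes was -0.08, beside -0.01 for all genes tested.

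Of the 7 other NF-κB subunits and IκB proteins, 2 were called higher in CIA and none lower, and the median log2 fold change was 0.37. By overlap, 3 were higher in every CIA library than in every Ctrl library and 2 lower. Nfkbib, the gene of IκBβ, was at 4.36, 4.77 and 4.37 in Ctrl, 8.17, 11.02 and 6.74 in CIA, and 6.50, 6.58 and 7.34 in the CIA+THz libraries. Nfkbie, the gene of IκBε, was at 2.67, 4.42 and 2.90, at 5.11, 6.60 and 5.93, and at 6.08, 6.03 and 7.16 in the same order. In both genes every arthritic library was above every Ctrl library. In CIA against Ctrl, the log2 fold change was 0.90 (SE 0.22, adjusted p = 0.129 by limma) for Nfkbib and 0.83 (SE 0.26, adjusted p = 0.191 by limma) for Nfkbie. Rela, the gene of the p65 subunit, was at 10.8, 10.5 and 12.9 in Ctrl, 15.3, 19.8 and 19.1 in CIA, and 15.3, 14.0 and 13.5 in the CIA+THz libraries. Its log2 fold change of 0.66 (SE 0.16, adjusted p = 0.128 by limma) was just under the threshold in CIA against Ctrl, and in CIA+THz against CIA it was -0.33 (SE 0.14), or -0.06 with deposited FPKM. Rel, the gene of c-Rel, had a log2 fold change of -0.20 (SE 0.11) and then of 0.17 (SE 0.10), or 0.45 in the latter with deposited FPKM. Rel and Nfkbiz were the 2 genes lower in every CIA library than in every Ctrl library. With deposited FPKM this held for Nfkbiz, while Rel overlapped between these groups. Nfkbiz, named after its values were seen, had -0.53 in CIA against Ctrl (SE 0.14, adjusted p = 0.141 by limma), under the threshold in size.

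Among 10 genes of the non-canonical pathway, 3 were called higher in CIA and none lower, with a median log2 fold change of 0.29. Cd40, a receptor of B cells and myeloid cells, had group means of 8.16 in Ctrl, 15.8 in CIA and 14.6 in the CIA+THz libraries, and a log2 fold change of 0.95 (SE 0.31, adjusted p = 0.200 by limma) in CIA against Ctrl. Ltbr, the lymphotoxin β receptor, was at 59.9, 49.9 and 60.6 in Ctrl, 65.0, 103 and 115 in CIA, and 65.1, 74.0 and 77.8 in the CIA+THz libraries, and it had a log2 fold change in CIA against Ctrl of 0.69 (SE 0.22, adjusted p = 0.192 by limma). Its CIA libraries spread widely, and the lowest was close to the highest Ctrl library. Lta, the gene of lymphotoxin α and the neighbour of Tnf in the genome, had means of 1.13, 2.22 and 2.19, and in CIA against Ctrl its log2 fold change was 0.97 (SE 0.39, adjusted p = 0.265 by limma), opposite in sign to that of Tnf. Map3k14, the gene of the kinase NIK, had a log2 fold change of 0.41 (SE 0.20) and did not pass the test.

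Of the 19 genes of the TNF receptor complex and IKK, 1 was called higher in CIA and none lower. This was Tradd, the adaptor that binds the death domain of TNFR1, which was at 2.20, 2.41 and 3.999 in Ctrl, 4.59, 6.84 and 4.20 in CIA, and 4.94, 4.68 and 4.95 in the CIA+THz libraries. Its log2 fold change was 0.85 (SE 0.32, adjusted p = 0.241 by limma), and Ctrl replicate 3 was close to the CIA range. Of the genes of the IKK subunits, Chuk was lower in every CIA library than in every Ctrl library, with a log2 fold change of -0.54 (SE 0.18, unadjusted p = 0.0203 and adjusted p = 0.207 by limma), and it was not called because its change was under 0.67 in size. The log2 fold change was 0.08 (SE 0.18) for Ikbkb and -0.28 (SE 0.27) for Ikbkg. Ripk1 (0.15, SE 0.16), Traf2 (0.26, SE 0.23) and Birc3 (-0.03, SE 0.14), which encode the kinase, adaptor and ubiquitin ligase of the receptor complex, did not pass either. By overlap, 3 of the 19 genes were higher in every CIA library than in every Ctrl library and 3 lower. The lower ones were Chuk and, named after their values were seen, Cflar (-0.48, SE 0.12) and Birc2 (-0.48, SE 0.20).

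None of the 7 genes of ADP-heptose and TIFA signalling was called in CIA against Ctrl. Traf6 had a log2 fold change of -0.56 (SE 0.22, unadjusted p = 0.0390 by limma), under the threshold in size, and Alpk1, at a mean of only 0.447 in Ctrl and 0.942 in CIA, one of 0.91 (SE 0.51). None of the 11 deubiquitinases and adaptor inhibitors was called, and Cyld, which removes ubiquitin chains from this pathway, had -0.14 (SE 0.16). Of 10 genes of TNF shedding and mRNA control, none was called higher and Tia1 was called lower. Tia1, whose protein holds back translation of Tnf mRNA, had means of 4.41 in Ctrl, 2.69 in CIA and 4.12 in the CIA+THz libraries, and a log2 fold change in CIA against Ctrl of -0.75 (SE 0.29, adjusted p = 0.260 by limma). Adam17, the protease that sheds TNF, had -0.17 (SE 0.12), and Zfp36, whose protein degrades Tnf mRNA, had -0.21 (SE 0.14). Of 17 NF-κB target genes tested, none was called, and their median was -0.27, with 5 above 0 and 12 below. By overlap, 4 of them were higher in every CIA library than in every Ctrl library and 1 lower. Irf1, the gene of an interferon regulatory factor, and Icam1, the gene of an adhesion molecule, were just under the threshold in size and higher in every CIA library than in every Ctrl library. They are named here after their values were seen. Irf1 had a mean of 48.8 in Ctrl, 76.5 in CIA and 63.4 with irradiation and a log2 fold change in CIA against Ctrl of 0.64 (SE 0.11, adjusted p = 0.0669 by limma), the lowest adjusted p of the 81 genes. Icam1 had means of 17.3, 26.6 and 20.6 and a log2 fold change of 0.62 (SE 0.13, adjusted p = 0.0901 by limma). Il1b was at 359, 259 and 350 in Ctrl, 379, 370 and 409 in CIA and 302, 281 and 320 in the CIA+THz libraries.

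**Figure D5:**
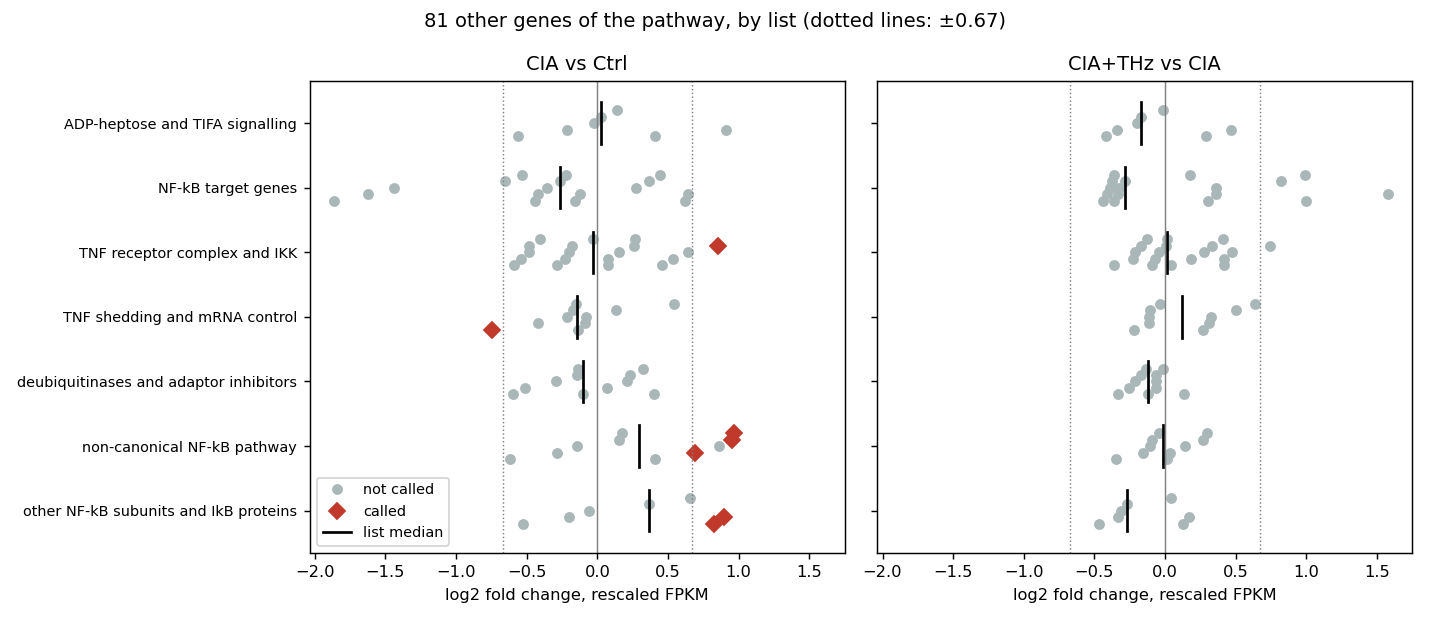
Log2 fold changes (horizontal axes, rescaled FPKM) of the 81 other genes of the pathway that were tested, in 7 lists, in CIA against Ctrl and in CIA+THz against CIA, with called genes as diamonds, list medians as bars and dotted lines at ±0.67. Between CIA and Ctrl 6 genes are called higher and 1 lower, and between CIA+THz and CIA none is called.

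Irradiated and untreated arthritic mice were compared on the same 81 genes, and none was called, beside 4.54% of all genes. By limma 9 of them had an unadjusted p under 0.05, beside 13.2% of all genes, and 0 had an adjusted one, as was so for 0% of all genes. With deposited FPKM 7 were called, all of them higher, and leaving out 1 library gave 0 to 2, with 2 without CIA replicate 3, 0 without CIA+THz replicate 3 and 1 without any other. The median log2 fold change was -0.06, beside 0.03 for all genes. For the genes named above it was -0.36 (SE 0.09) for Il1b, -0.36 (SE 0.16) for Traf2 and -0.23 (SE 0.11) for Ripk1, and with deposited FPKM it was -0.08, -0.09 and 0.05 in the same order, with overlap in each. It was 0.47 (SE 0.18) for Traf6, 0.42 (SE 0.19) for Chuk and 0.42 (SE 0.23) for Ikbkg, or 0.74, 0.69 and 0.69 with deposited FPKM. It lay between -0.19 and 0.05, and between 0.05 and 0.32 with deposited FPKM, for Ikbkb, Alpk1, Map3k14, Cyld, Birc3, Adam17 and Zfp36.

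Between CIA+THz and Ctrl, 4 of the 81 genes rose and 2 fell, or 7.41%, beside 7.88% of all genes. None had an adjusted p under 0.05 by limma (beside 0.105% of all genes), and 23 had an unadjusted p under 0.05, beside 18.1% of all genes. Cd40, Nfkbie, Tradd and Cd83 rose, with log2 fold changes of 0.86 (SE 0.27), 0.96 (SE 0.24), 0.79 (SE 0.26) and 0.80 (SE 0.27). Ier3, an early response gene, fell by 0.91 on the log2 scale (SE 0.27, adjusted p = 0.167 by limma). Il1rn, the gene of the interleukin-1 receptor antagonist, fell by 0.70 (SE 0.12, adjusted p = 0.0779 by limma), from a mean of 108 in Ctrl to 66.0 in CIA+THz. With deposited FPKM the values were 1.17 for Cd40, 1.26 for Nfkbie, 1.08 for Tradd, 1.10 for Cd83, -0.61 for Ier3 and -0.40 for Il1rn, and the last 2 genes overlapped between the groups. Of 15 alternatives, the call was lost under 6 for Tradd, 5 for Cd83, 5 for Il1rn, 3 for Cd40, 3 for Ier3 and 1 for Nfkbie. With deposited FPKM 9 genes were called, and none of them fell, and 10 were called without Ctrl replicate 3.

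The genes whose pattern over the 9 libraries was most like that of the 3 members with the widest span were sought among 9747 genes with a mean of at least 1, by the root mean square difference of centred log2 levels. For Tifab they were Lrp1 (0.18), Plxnb2 (0.21) and Clec4a1 (0.22), whose means in Ctrl, CIA and CIA+THz were 9.43, 31.1 and 20.9 for Lrp1, 2.93, 8.58 and 6.86 for Plxnb2, and 24.1, 63.3 and 51.6 for Clec4a1. For Tnf they were Padi4 (0.19), Hspa1a (0.20) and Slc7a11 (0.23), of which Padi4 had means of 44.9, 31.9 and 21.2. For Tifa they were B4gat1 (0.23), Tnfrsf21 (0.24) and Trdmt1 (0.24), and Tnfrsf21, which encodes another receptor of the TNF receptor family with a death domain, had means of 4.55, 8.21 and 7.32. These are nearest in pattern by their values over all 3 groups and were not tested.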

How the data were processed

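The authors sequenced 9 paired-end libraries of blood RNA (Ctrl, CIA and CIA+THz, 3 each) on an Illumina HiSeq instrument. The authors deposited FPKM for 20926 genes by symbol, 1 column per library. The submitters' processing notes name bcl2fastq 2.0, HISAT2, StringTie, DESeq2 and the build mm10. The annotation, strand setting and filters are not given in the sources used here. FPKM carried no whole-read steps, so read counts were not recovered and depth is unknown. The sample titles and the methods of the study do not state whether each library is from 1 mouse.

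Each FPKM column was divided by 1 median-of-ratios factor. limma 3.58.1 in R 4.3.3 (lmFit, eBayes with trend) took log2(rescaled FPKM + 0.1) of 12366 genes (mean of at least 0.1) in the 6 libraries of each pair. The call rule (log2 fold change over 0.67 in size, unadjusted p under 0.05) is that of the study. The fit was tested on simulated data. Coordinates are from GENCODE vM21 (GRCm38, the assembly of mm10) by symbol, and sequences from RefSeq (GRCm38.p6). Promoter windows were used for 8 of 10 members, and protein sequences were not used here.

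The members, pathway lists and marker lists were chosen with earlier results of these data known. Genes named were all 10 members, 15 pathway genes set by name, up to 4 called genes with a mean of at least 1 per list and comparison with the largest change, and the 3 genes nearest in pattern to each of the 3 members of widest span. Alternatives were deposited FPKM, upper-quartile factors, a pseudocount of 1, other minimum levels, eBayes without trend, a joint fit of all 3 groups, a replicate block, fits without each library in turn, and the Benjamini-Hochberg adjustment.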

Additional observations from a re-analysis of the deposited data

How the results depend on the processing

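The direction of CIA+THz against the other groups depends on scaling. With deposited FPKM the called genes were 1199 between CIA+THz and CIA (1133 higher, 66 lower, against 363 and 198) and 1720 between CIA+THz and Ctrl (1600 and 120, against 574 and 401), 7 and not 0 pathway genes were called between CIA+THz and CIA, and called members were 1 in CIA against Ctrl (3 with rescaling) and 5 in CIA+THz against Ctrl (2 with rescaling). The log2 fold change turned positive for Birc3 (0.0015) in CIA against Ctrl, and in CIA+THz against CIA for Ikbkb (0.24), Ripk1 (0.047), Alpk1 (0.052), Cyld (0.21), Adam17 (0.17) and Zfp36 (0.16). The adjusted p left 19, 0 and 13 genes in CIA against Ctrl, CIA+THz against CIA and CIA+THz against Ctrl (1118, 561 and 975 at the unadjusted p), 0 pathway genes in each, and 1, 0 and 0 members. A pseudocount of 1 left 283 genes between CIA+THz and CIA and 1 member in CIA against Ctrl. Without a minimum level, and without the trend, 1 pathway gene was called between CIA+THz and CIA. The causes were not tested.

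Leaving out 1 library gave 966 to 1261 genes, 3 to 11 pathway genes and 1 to 2 members in CIA against Ctrl. It gave 484 to 745 genes, 0 to 2 pathway genes and 0 members in CIA+THz against CIA, and 724 to 1487 genes, 5 to 10 pathway genes and 2 to 3 members in CIA+THz against Ctrl. Without Ctrl replicate 3 there were 11 pathway genes in CIA against Ctrl, and 10 pathway genes and 1487 genes in CIA+THz against Ctrl. Without Ctrl replicate 2 or CIA replicate 2 there were 3 pathway genes in CIA against Ctrl, and without Ctrl replicate 1 or 2 there was 1 member. The sign of small fold changes turned over these fits, with ranges in CIA against Ctrl of -0.080 to 0.18 for Ikbkb, -0.22 to 0.0021 for Cyld and -0.13 to 0.053 for Birc3, and in CIA+THz against CIA of -0.13 to 0.012 for Ikbkb, -0.55 to 0.043 for Alpk1, -0.16 to 0.17 for Map3k14, -0.11 to 0.016 for Cyld and -0.072 to 0.11 for Birc3. The replicate numbers were not taken as pairs. Same-numbered libraries had correlations of deviations from -0.052 to 0.031, and differently numbered ones from -0.034 to 0.056. These show no pairing but cannot exclude a batch shared by number. With the replicate block 1073, 506 and 967 genes, 6, 0 and 7 pathway genes and 2, 0 and 3 members were called. With 3 libraries a group and no read counts, the error of low genes such as Tnf cannot be split into counting and biological parts.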
